A study of Mus musculus with 6 samples.

Results

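Krt5, Krt14 and Krt15, the keratin genes of the basal layer of the epidermis, were followed by name in cultured mouse keratinocytes of 2 genotypes. They are 3 of 30349 genes listed in the deposited table, and 3 of the 11716 genes whose mean reached 1 CPM (counts per 1000000 reads of a library), so each passed the filter on low values. The wild type group held 3 libraries (replicates 13, 14 and 15) and the p63 alphaKO group 3 (replicates 9, 10 and 11). All were primary epidermal cells from mice at postnatal day 2, grown to confluence for 5 to 6 days with calcium at 0.05 mM, chelated serum at 4% and EGF at 2.5 ng/mL, and RNA was read by 3' digital gene expression, which counts reads near transcript ends. The part of Trp63 removed in the p63 alphaKO genotype, the number of animals behind a library and the litters are not stated in the labels, so p-values measure the spread between these libraries, which may be technical.

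Keratins are intermediate filament proteins that polymerise only as pairs of a type I and a type II chain. In the basal layer the type II keratin K5, encoded by Krt5, pairs mainly with the type I keratin K14, encoded by Krt14, and mutations in either human gene cause epidermolysis bullosa simplex, in which basal cells break under friction. K15, encoded by Krt15, is a second type I partner of K5, found in basal cells and widely used as a marker of hair follicle bulge stem cells. The transcription factor p63, encoded by Trp63, is known to bind regulatory regions of KRT5 and KRT14.

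In mm10 (GRCm38, GENCODE vM21) Krt5 (ENSMUSG00000061527.7) lies on chromosome 15, 101707070 to 101712898, with 9 exons. Krt14 (ENSMUSG00000045545.8) lies on chromosome 11, 100203162 to 100207548, and Krt15 (ENSMUSG00000054146.8) on the same chromosome, 100131758 to 100135928, each with 8 exons. All 3 are on the minus strand. The last 90 coding bases of each main transcript, from the GENCODE transcript sequences, are shown with those of Krt16 and Krt17, since a 3' assay must tell these closely related genes apart by sequence near this end. The stop codon is in capitals.
Krt5: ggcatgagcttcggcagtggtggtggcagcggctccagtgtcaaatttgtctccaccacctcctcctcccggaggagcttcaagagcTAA
Krt14: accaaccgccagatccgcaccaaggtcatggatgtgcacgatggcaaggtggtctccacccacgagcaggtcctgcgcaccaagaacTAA
Krt15: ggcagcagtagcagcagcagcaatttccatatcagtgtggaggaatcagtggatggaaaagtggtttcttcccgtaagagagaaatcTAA
Krt16: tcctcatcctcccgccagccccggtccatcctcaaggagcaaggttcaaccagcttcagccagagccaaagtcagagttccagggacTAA
Krt17: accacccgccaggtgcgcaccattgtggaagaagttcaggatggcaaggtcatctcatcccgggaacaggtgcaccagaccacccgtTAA

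Over the whole coding sequence Krt14 and Krt16 were identical at 86.5% of aligned bases, Krt14 and Krt17 at 84.1%, and Krt14 and Krt15 at 74.2%. Within the 90 bases shown, identity at aligned bases, gaps left out, was lower. It was 68.3% (56 of 82) for Krt14 and Krt16, 67.8% (61 of 90) for Krt14 and Krt17 and 65.8% (50 of 76) for Krt14 and Krt15. Of the 451 windows of 50 bases in the last 500 bases of a transcript, none of Krt5 or Krt15 occurred in an annotated transcript of another gene. For Krt14 43 windows (9.53%) also occurred in Krt16 or Krt17, and the one nearest the end stopped 319 bases short of it. The sources used here do not say how reads that match several genes were treated, so the split of reads between Krt14, Krt16 and Krt17 is uncertain for reads from that stretch.

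Libraries held 1699716 to 3215333 reads, and 3 reads, the most that a count of 0 allows, correspond to 0.93 CPM in the deepest and 1.76 CPM in the shallowest. Trp63 was read at 38.0 to 53.2 CPM in wild type libraries and at 49.8 to 59.3 CPM in those of p63 alphaKO, a 3' level per gene that does not check the genotype. Of the 10 keratinocyte markers listed, Dsp (desmoplakin) was at 1022 to 3552 CPM and Perp at 1266 to 1633 CPM, while Dsg3 was at 111 to 199 CPM. The 10 immune and Langerhans markers summed to at most 1.37 CPM, and the 10 melanocyte markers to at most 1037 CPM. On the first principal component of all tested genes, p63 alphaKO replicate 11 (61.2) and wild type replicate 15 (13.6) stood apart from the other 4 libraries (-26.9 to -8.74). Results are therefore also given without these 2 libraries.

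Krt5 and Krt14 were read at very high levels in both genotypes and neither passed the test, and Krt15 was a low gene that was lower in every p63 alphaKO library than in any wild type library, without passing the test across all genes. Krt5 was at 0.91-fold of wild type in p63 alphaKO, Krt14 at 0.98-fold and Krt15 at 0.25-fold, as fitted on log2(CPM + 1). By limma with Benjamini-Hochberg adjustment over all tested genes, 0 of the 3 had an adjusted p under 0.05, where 0.0427% of all tested genes (5 of 11716) did. With an unadjusted p under 0.05 and a lower level in p63 alphaKO there was 1 of the 3, Krt15, against 3.35% of tested genes. Libraries that did not overlap between the groups, with p63 alphaKO lower, were seen for Krt15 alone, against 5.09% of tested genes.

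Krt5, the type II chain, was read in wild type replicates 13, 14 and 15 at 10684, 10883 and 10298 CPM. In p63 alphaKO replicates 9, 10 and 11 it was at 11423, 9236 and 8471 CPM. The groups overlapped: p63 alphaKO replicate 9 was the highest of the 6 libraries, and replicates 10 and 11 were the lowest. Group means were 10622 ± 297 CPM (SD, n = 3) for wild type and 9710 ± 1532 CPM (SD, n = 3) in p63 alphaKO, a log2 fold change of -0.14 (SE 0.25, limma adjusted p = 0.983). The 95% interval of the difference ran from 0.63-fold to 1.31-fold. The difference was -0.05 without p63 alphaKO replicate 11 and -0.26 without replicate 9.

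Krt14, the main type I partner, had wild type levels, in the same order, of 14058, 13801 and 12188 CPM. In the p63 alphaKO libraries it was at 15124, 14239 and 10394 CPM. Again the highest and the lowest library were both p63 alphaKO, replicates 9 and 11. The means were 13349 ± 1014 CPM (SD, n = 3) and 13252 ± 2514 CPM (SD, n = 3), a log2 fold change of -0.03 (SE 0.26, limma adjusted p = 0.997) with a 95% interval from 0.67-fold to 1.44-fold. Its sign rested on single libraries, since the log2 fold change was 0.14 without p63 alphaKO replicate 11 and 0.01 without wild type replicate 13.

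The spread of both genes was wider among the p63 alphaKO libraries. The SD was 2.80% of the mean for Krt5 in wild type and 15.8% in p63 alphaKO, and for Krt14 7.59% and 19.0%. Krt5 rested on 14412 to 35009 reads per library and Krt14 on 17684 to 44742, for which counting error alone is 0.47% to 0.83%, so the spread between libraries was larger than counting error in both groups. Whether the spread differs between the genotypes was not tested. Both genes were lowest in p63 alphaKO replicate 11, the shallowest library and the one farthest out on the first component, and the part of that library's quality in its levels was not tested.

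**Figure D1:**
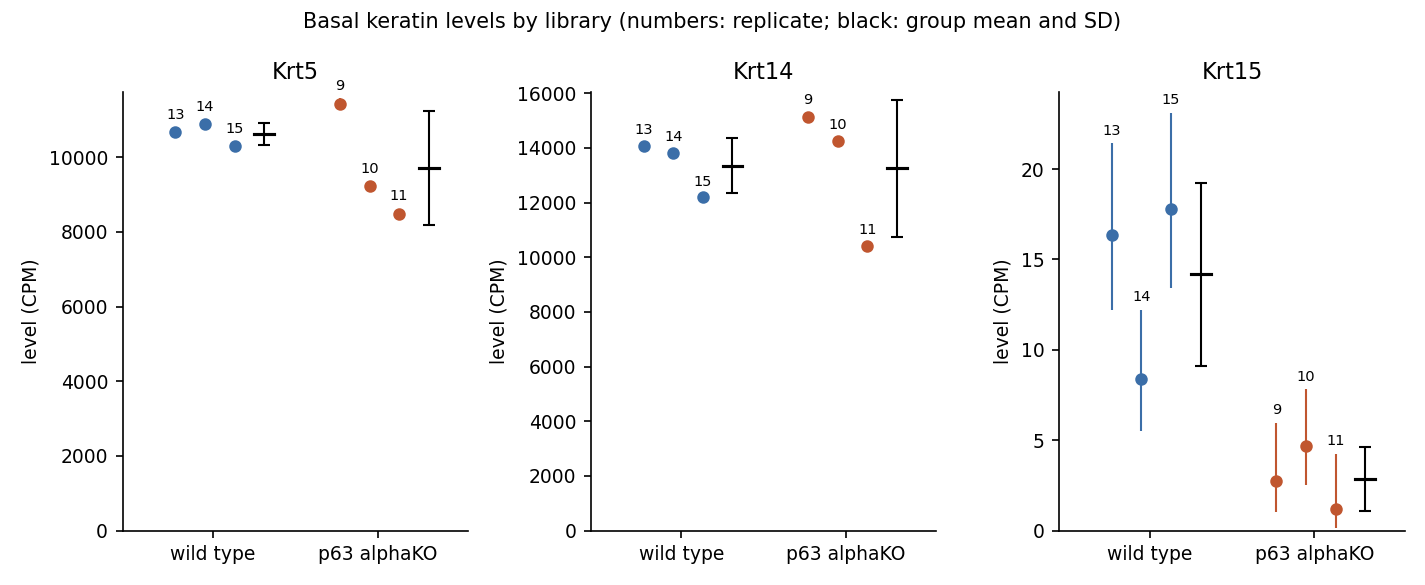
Levels in CPM (vertical axis, from 0) of Krt5, Krt14 and Krt15 in each of the 6 libraries, by genotype, with exact 95% counting intervals as thin bars (smaller than the points for Krt5 and Krt14) and the group mean and SD in black. Krt5 and Krt14 overlap between the genotypes, with p63 alphaKO replicate 9 highest and replicate 11 lowest, while Krt15 lies at 8.39 to 17.8 CPM for wild type and at 1.18 to 4.67 CPM for p63 alphaKO.

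Krt15 in wild type replicates 13, 14 and 15 was at 16.3, 8.39 and 17.8 CPM, from 52, 27 and 56 reads. In p63 alphaKO replicates 9, 10 and 11 it was at 2.74, 4.67 and 1.18 CPM, from 6, 14 and 2 reads. All 3 p63 alphaKO libraries lay below all 3 wild type libraries, and the gap was narrowest between wild type replicate 14 and p63 alphaKO replicate 10, whose exact 95% counting intervals overlapped (5.53 to 12.2 CPM and 2.55 to 7.83 CPM). Those intervals cover counting error only and take reads as independent molecules. Whether molecular identifiers were used is not stated, so this could not be checked. With 2 reads, p63 alphaKO replicate 11 was close to a count of 0, and its exact 95% interval ran from 0.14 to 4.25 CPM.

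The means of Krt15 were 14.2 ± 5.06 CPM (SD, n = 3) for wild type and 2.86 ± 1.75 CPM (SD, n = 3) in p63 alphaKO. The log2 fold change was -2.02 (SE 0.47), a level at 0.25-fold of wild type with a 95% interval from 0.125-fold to 0.489-fold, with a limma unadjusted p of 0.000454 and an adjusted p of 0.299. On reads recovered from the CPM, edgeR gave -2.23 (adjusted p = 0.279) and DESeq2 -2.26 (adjusted p = 0.0804), so Krt15 passed with neither tool. Over all 19 alternatives the adjusted p of Krt15 ran from 0.0804 to 0.676 and the log2 fold change stayed negative, from -2.35 to -1.27. The smallest change, -1.27, came with a pseudocount of 5 CPM, which exceeds every p63 alphaKO level, and the value was -1.47 (adjusted p = 0.323) without wild type replicate 15 and p63 alphaKO replicate 11.

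Ratios between the members within a library do not move with library scaling. Per kilobase of annotated transcript, Krt14 was above Krt5 in all 6 libraries, by 1.53 to 1.99 times on the scale of CPM per kilobase. A 3' assay need not give reads in proportion to length, and by CPM alone the ratio was 1.18 to 1.54, with the same order. Krt15 was far below both in every library, at 0.69 to 10.5 CPM per kilobase against 6121 to 8907 for Krt14 and 3856 to 5199 for Krt5. The order Krt14, Krt5, Krt15 thus held in each library on both scales.

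The log2 ratio of Krt14 to Krt5 was 0.40, 0.34 and 0.24 in wild type replicates 13, 14 and 15 and 0.40, 0.62 and 0.30 in p63 alphaKO replicates 9, 10 and 11. The groups overlapped, and the mean difference, p63 alphaKO minus wild type, was 0.11 (two-sided exact permutation p = 0.4, n = 3 per group, adjusted p = 0.5 over the 3 exact tests made here). Without p63 alphaKO replicate 10, the highest library, it was 0.02. The smallest p that 3 against 3 libraries can give in this test is 0.1.

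Set against Krt14, the other type I partner of K5, Krt15 was at 11.6, 6.08 and 14.6 CPM per 10000 CPM of Krt14 in wild type replicates 13, 14 and 15. In p63 alphaKO replicates 9, 10 and 11 it was at 1.81, 3.28 and 1.14. The groups did not overlap. On the log2 scale with 1 CPM added, the mean ratio was -9.84 ± 0.61 (SD, n = 3) for wild type and -11.8 ± 0.48 (SD, n = 3) in p63 alphaKO. The difference of -1.99 had a two-sided exact permutation p of 0.1, the smallest the design allows, and a Benjamini-Hochberg adjusted p of 0.3 over the 3 exact tests. It was -1.55 without wild type replicate 15 and p63 alphaKO replicate 11.

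**Figure D2:**
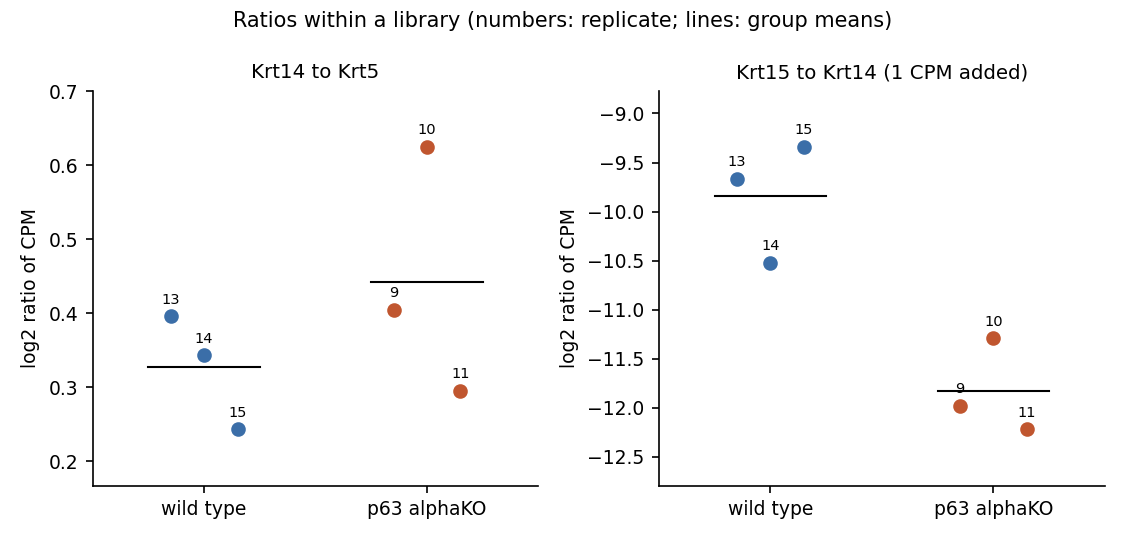
Log2 ratio of CPM within each library (vertical axes) for Krt14 to Krt5 and for Krt15 to Krt14 with 1 CPM added, by genotype, with points as libraries and lines as group means. The Krt14 to Krt5 ratios overlap between 0.24 and 0.62, and the Krt15 to Krt14 ratios of the 3 p63 alphaKO libraries all lie below those of the 3 wild type libraries.

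The basal keratins shared the keratin reads of these cultures with the wound keratins. Of 54 type I and type II keratins in the lists used here, 52 are listed in the table and 21 were tested. Krt5, Krt14 and Krt15 made up 49.9%, 48.8% and 44.0% of summed keratin CPM in wild type replicates 13, 14 and 15, and 49.5%, 58.7% and 48.2% in p63 alphaKO replicates 9, 10 and 11. The means differed by 4.53 percentage points (two-sided exact permutation p = 0.5, n = 3 per group, adjusted p = 0.5), and by 1.27 points without p63 alphaKO replicate 10. That library had the highest basal share and the lowest sum of Krt6a, Krt6b, Krt16 and Krt17, keratins of wounded and cultured epidermis, at 16265 CPM against 20052 to 27859 CPM in the other 5. Of all reads, the 3 basal keratins took 2.25% to 2.48% in wild type and 1.89% to 2.66% in p63 alphaKO.

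**Figure D3:**
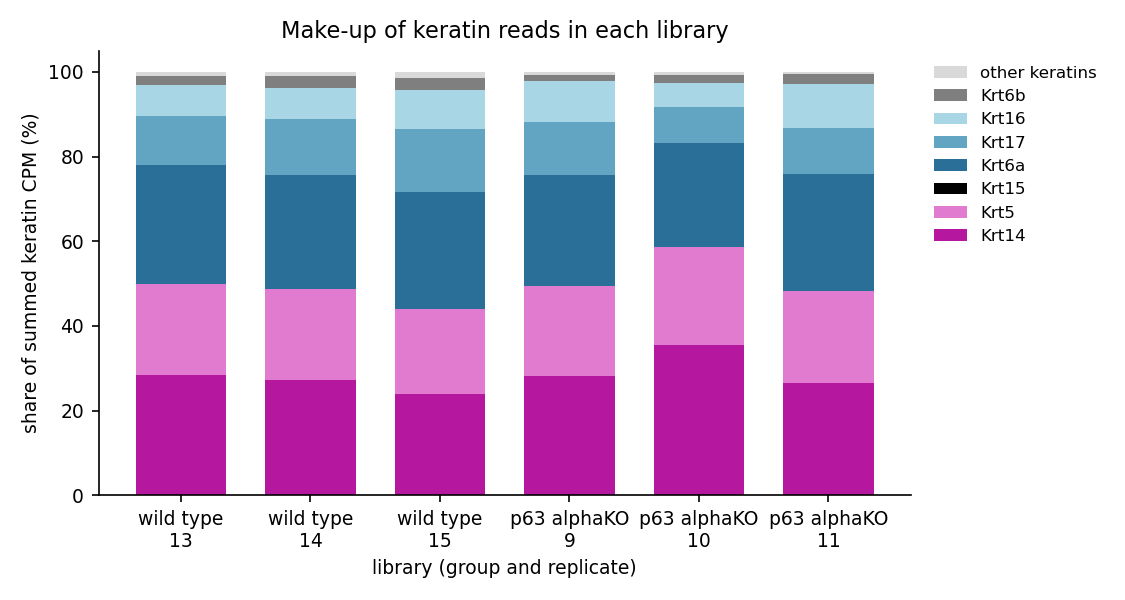
Stacked bars of the share of summed keratin CPM (vertical axis, percent) that each keratin took in each of the 6 libraries, with Krt14 and Krt5 at the bottom and Krt15 too small to see. The basal share lies between 44.0% and 58.7%, with p63 alphaKO replicate 10 highest and wild type replicate 15 lowest.

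Among the other tested keratins, 6 of 7 of type I and 8 of 11 of type II were lower in p63 alphaKO, with a median log2 fold change of -0.22 and -0.28. Over all tested genes 5781 of 11716 were lower and the median was 0.006. Krt1, the type II keratin of suprabasal cells, was the 1 keratin that passed, and fell by 2.44 on the log2 scale (SE 0.32, limma adjusted p = 0.00686). Its type I partner Krt10 stood at -1.60 (adjusted p = 0.286). Krt15 stood at -2.02, between Krt1 and Krt10, whereas Krt5 and Krt14, with Krt6a the most strongly read keratins, had intervals that spanned no difference. Krt1 was also the 1 lower gene among the 5 past the threshold over all genes. Krt17, another type I keratin, stood at -0.54 (adjusted p = 0.794).

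**Figure D4:**
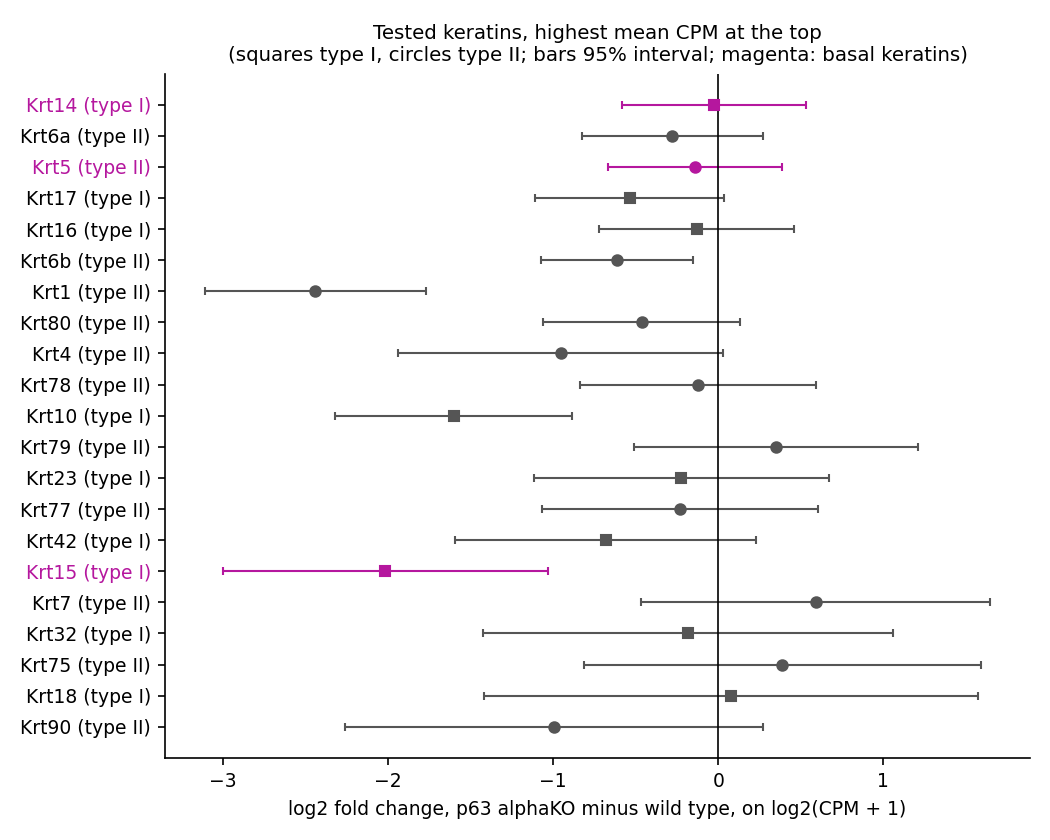
Log2 fold change, p63 alphaKO minus wild type, with its 95% interval from limma (horizontal axis, on log2(CPM + 1)) for the 21 tested keratins, ordered by mean CPM with the highest at the top, squares for type I and circles for type II. Krt5 at -0.14 and Krt14 at -0.03 have intervals that span 0, and Krt15 at -2.02 lies between Krt1 at -2.44 and Krt10 at -1.60.

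The neighbours of the members in the genome are mostly other keratins. Krt15 lies 4.9 kb from Krt19 and 10.2 kb from Krt13, keratins of simple and of mucosal epithelia, and both were listed at 0 CPM in every library. Between Krt15 and Krt14, 67.2 kb apart, lie Krt19 and Krt9, and Krt9, the keratin of footpad epidermis, had 1 read in each group. On the other side of Krt14, Krt16 (38.5 kb away) stood at -0.13 and Krt17 (48.7 kb) at -0.54. Next to Krt5 lie Krt6a (12.8 kb), at -0.28, and Krt6b (26.8 kb), at -0.61 (SE 0.22, limma adjusted p = 0.716), whose libraries did not overlap. Krt71, Krt72 and Krt73, hair follicle keratins on the other side of Krt5, had a mean of at most 0.52 CPM in either group.

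Other genes of the basal layer were measured beside the keratins, in a list of adhesion receptors, cyclins and signalling genes. All 28 were tested, 17 lower and 11 higher in p63 alphaKO, with a median log2 fold change of -0.05, and none passed by limma. At an unadjusted p under 0.05 in either direction there were 2 of 28, where 6.36% of all tested genes were, a share near that background. Dll1, a Notch ligand of basal keratinocytes, was at 22.3, 14.9 and 13.3 CPM across wild type libraries, against 8.68, 10.7 and 7.64 CPM across those of p63 alphaKO (log2 fold change -0.82, SE 0.35, limma adjusted p = 0.767). Col17a1, the hemidesmosomal collagen, stood at -0.16 and Itga6, its integrin companion, at -0.04, so the basal genes around Krt5 and Krt14 had no called difference in either direction.

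Factors known or reported to act on basal keratin genes were read next, in a list of 30 that were all tested. In p63 alphaKO 23 were lower and 7 higher, with a median log2 fold change of -0.15 and none past the threshold. Without p63 alphaKO replicate 11, 13 were lower. Cebpb, a basic leucine zipper factor of differentiating keratinocytes, stood at -0.71 (SE 0.30, limma adjusted p = 0.758). Kmt5a, a histone H4 methyltransferase, stood at -0.49 (SE 0.22, limma adjusted p = 0.767). These were the 2 of 30 with an unadjusted p under 0.05, a share near the 6.36% of all tested genes in either direction. Both were lower, where 3.35% of all tested genes were lower at that p. Trp63 stood at 0.25 (adjusted p = 0.926) and Tfap2a, the AP-2 alpha factor of keratin promoters, at -0.16.

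Genes that anchor keratin filaments or remove keratin protein were mixed. Of 25 in this list 24 were listed and tested, 14 lower and 10 higher, with a median of -0.03 and none past the threshold by limma or with an unadjusted p under 0.05. Without p63 alphaKO replicate 11, 5 were lower, and 9 without that library and wild type replicate 15. Jup, plakoglobin, stood at -0.50 and Pkp2, plakophilin 2, at -0.99 from a mean of 2.93 CPM in wild type. Apart from Krt5 and Krt14, the genes mutated in epidermolysis bullosa simplex had 3 of 8 lower and a median of 0.03, with Itgb4, the hemidesmosomal integrin, at -0.43 and Klhl24, the ubiquitin ligase adaptor that targets K14, at 0.36.

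Krt15 is also a marker of the hair follicle, so genes of follicle stem cells and skin appendages were read beside it. Of 22, 13 were tested. Without Krt15, 5 of 12 were lower and 7 higher, with a median log2 fold change of 0.11, 2 of 12 lower at an unadjusted p under 0.05 (3.35% of all tested genes) and none past the threshold. Lgr5, Gli1, Shh, Krt25 and Gata6 were listed at 0 CPM in every library, and Cd34, the bulge marker of mouse, was at 0 to 1.59 CPM. Other genes of the list were well read, with Sox9 at 257 to 472 CPM in wild type and 229 to 406 CPM in p63 alphaKO. Nfib was at 234 to 396 CPM and 153 to 325 CPM, in the same order of groups. Msx2, a homeobox gene of hair and epidermis, was at 9.74, 15.2 and 11.4 CPM across wild type libraries, against 2.28, 0.67 and 4.70 CPM across those of p63 alphaKO (log2 fold change -2.04, SE 0.49, limma adjusted p = 0.324), and did not overlap between the groups. Summed CPM of the list was 641 to 954 in wild type and 488 to 882 in p63 alphaKO. In bulk cultures, fewer cells that express a gene and less RNA per cell cannot be told apart.

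Most suprabasal genes were lower in p63 alphaKO, the sign of all 3 members, though that of Krt14 rested on single libraries. In the list of spinous and granular genes 20 of 24 tested were lower in p63 alphaKO, with a median of -0.34, where 5781 of all 11716 were lower with a median of 0.006, and Krt1 passed. At an unadjusted p under 0.05, 7 of 24 were lower (3.35% of all tested genes) and 0 higher, and 6 of 24 were lower without overlap between the libraries (5.09% of all tested genes). Their summed CPM overlapped, at 15932 to 16854 in wild type and 11244 to 18550 in p63 alphaKO.

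Markers of other cell types were at low to moderate levels. Summed CPM of the 11 muscle genes was 105, 112 and 774 for wild type replicates 13, 14 and 15, against 36.1, 44.7 and 108 for p63 alphaKO replicates 9, 10 and 11. All 8 tested muscle genes were lower, with a median log2 fold change of -2.24, 7 of them at an unadjusted p under 0.05 (3.35% of all tested genes) and none past the threshold, and Myh3 and Myh8 were at 0. The 10 melanocyte genes summed to 311 to 832 CPM and 234 to 1037 CPM, with 7 of 10 lower. The 10 fibroblast genes summed to 101 to 136 CPM and 121 to 171 CPM, with 7 of 8 tested lower and Lum and Postn at 0. The exception, Sparc, a secreted matrix protein, was at 66.3, 60.3 and 72.7 CPM for wild type replicates 13, 14 and 15 and 89.5, 98.6 and 122 CPM for p63 alphaKO replicates 9, 10 and 11 (log2 fold change 0.62, limma adjusted p = 0.729). Sebaceous genes summed to 208 to 318 CPM and 130 to 374 CPM. The highest summed CPM of a library was 5.29 for endothelial, 8.90 for Merkel and 4.11 for erythroid markers. The part of these cells in the Krt15 difference was not tested.

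Genes whose levels followed each member most closely were found by Pearson's r over the 6 libraries on log2(CPM + 1), among genes whose mean reached 10 CPM. All genes of a library share its depth and total, so these values are a description. Krt5 and Krt14 had r = 0.74 with each other, Krt5 and Krt15 0.50, and Krt14 and Krt15 0.29. For Krt5 the pair with Krt14 did not stand out among keratins, as Krt5 had 0.85 with Krt6a, 0.77 with Krt17 and 0.46 with Krt16. Krt14 had lower values with these keratins than with Krt5, at 0.31, 0.16 and -0.16 in the same order. Krt15 had 0.81 with Krt1 and 0.68 with Krt10. Closest to Krt5 were Scyl2 (r = 0.98), Psd4, Aldoa (an aldolase of glycolysis), Tgm1 (the transglutaminase of the cornified envelope) and Cul3 (0.98). Tgm1 was at 20.4, 28.0 and 21.3 CPM across wild type libraries, against 30.1, 9.33 and 7.64 CPM across those of p63 alphaKO, so replicate 9 was highest and replicate 11 lowest, as for Krt5.

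Closest to Krt14 were Ubald1 (r = 0.996), Rarg (a retinoic acid receptor of epidermis), Ylpm1, Dhx38 and Foxn3 (0.993), and 511 of 8005 genes had r above 0.9. Rarg was at 114, 116 and 85.1 CPM across wild type libraries, against 137, 120 and 52.9 CPM across those of p63 alphaKO, again lowest in replicate 11. Among the closest to Krt15 were Lbr (the lamin B receptor of the nuclear envelope, r = 0.98), Mastl (a kinase of mitotic entry), Ubtf (a transcription factor of ribosomal RNA genes) and Kin (0.96), and 37 of 8006 genes had r above 0.9. Lbr was at 88.0, 76.2 and 105 CPM across wild type libraries, against 57.5, 59.7 and 42.3 CPM across those of p63 alphaKO (log2 fold change -0.75, limma adjusted p = 0.646).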

How the data were processed

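Per the submitters' processing notes, STAR, HTSeq and the build mm10 were used, with no versions, roles or options. The sources used here do not give the annotation, the filters or whether molecular identifiers were used. The authors deposited CPM, 1 column per library. Divided by what 1 read is worth, 100% of values above 0 came within 0.1 of a whole number, which gave back the reads. No 2 libraries of a group agreed within sampling noise (chi-square per degree of freedom 7.97 to 20.9).

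Genes whose mean reached 1 CPM were tested with limma 3.58.1 (R 4.3.3, trended eBayes) on log2(CPM + 1), two-sided, calling genes at a Benjamini-Hochberg adjusted p under 0.05. Alternatives used edgeR 4.0.16 and DESeq2 1.42.0 on recovered reads, other pseudocounts, filters and scalings, and left out libraries. Ratios and shares per library used exact permutation tests in scipy 1.17.1. Coding sequences were aligned with Biopython 1.88.

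Of each list, up to 4 genes past the threshold were named, or the 2 of smallest p; neighbours are the 3 nearest listed genes per side, and up to 5 genes per member were named by r. Some genes picked by these rules are not reported here. Col17a1, Itga6, Tfap2a, Sox9, Nfib and the marker genes given by level were chosen after their values were seen. The members and lists were chosen with earlier results of these data known.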

Additional observations from a re-analysis of the deposited data

How the results depend on the processing

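Krt5 stayed lower and Krt15 stayed lower in p63 alphaKO under all 19 alternatives, and neither passed in any. Krt14 was lower in 16 and higher in 3: 0.14 without p63 alphaKO replicate 11, 0.08 if wild type replicate 15 was left out as well, and 0.01 without wild type replicate 13, within a range of -0.13 to 0.14 when libraries were left out. The number of genes past the threshold, 5, was 18 by DESeq2, 2 by edgeR, 2 with a minimum mean of 5 CPM, 1 with no filter, 2 and 3 with pseudocounts of 0.5 and 5, and 2 to 48 when libraries were left out. By limma with no trend it was 0, with 827 genes at an unadjusted p under 0.05. Scalings moved the median of all genes by at most 0.02. One scaling, which left the reads of Gm42418 (3.24% to 5.09% of a library) out of the total, was chosen after seeing the data and gave -2.03 for Krt15. The counts of lower genes in the hair follicle and type II keratin lists were 10 and 18 with no filter, where more members were tested. No paired analysis was possible because the groups share no replicate number. Depth limits Krt15, with 2 to 14 reads per p63 alphaKO library.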
